A study of Mus musculus with 8 samples.

Results

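The proteasome genes were examined in 2 cell populations sorted from the bone marrow of adult C57Bl6 mice. They were the genes whose symbols begin with Psm, a letter from a to g and a digit, leaving out the inducible subunits Psmb8, Psmb9 and Psmb10, and 45 of the 24011 genes tested met this rule. By their known roles 14 encode the core, 17 the cap, 7 assembly chaperones and 5 activators or an inhibitor of the core. The remaining 2, Psmc3ip and Psme3ip1, carry the name of a protein that theirs binds and are not subunits. Psmb3, Psmb5 and Psme2b had no value under these symbols among the genes tested.

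Lin+ cells, which carry surface antigens of mature blood lineages, gave 4 arrays, and cells enriched for haematopoietic stem cells (HSC-enriched) gave another 4. The sample labels define the HSC-enriched gate as LSKCD105+CD48neg, where LSK stands for lineage-negative, Sca-1-positive and Kit-positive cells, while the design text of the series gives CD150 in the place of CD105. No genotype beyond the strain, treatment, sex or pooling is given for either group, and nothing in the labels says whether replicates are separate mice. The p-values therefore cover only the spread among these arrays, part or all of which may be technical. Values are log2 levels from 1-colour Affymetrix gene arrays, in which levels of different genes are not comparable. The number of arrays limits the precision.

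The proteasome is the protease that degrades most ubiquitin-tagged proteins of the cell. Its core is a barrel of stacked rings: outer alpha rings (Psma) gate the channel and inner beta rings (Psmb) hold the protease sites. The regulatory cap sits on the barrel's ends: its base holds the ATPases that unfold the substrate (Psmc) and its lid removes the ubiquitin chain. Dedicated chaperones build the alpha ring (Psmg) and the base (Psmd5, Psmd9, Psmd10) and leave the finished particle. Blood-forming stem cells are known to make protein at a lower rate than most of their progeny.

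Sorting markers followed the labels. Of 8 HSC markers 7 were higher in HSC-enriched cells and Cd48, which the gate selects against, was lower. The HSC-enriched arrays differed in the mean of 10 neutrophil markers, at 6.87, 6.78, 9.54 and 9.32 (log2) on replicates 1 to 4, against 11.74 to 12.00 on Lin+ arrays. Means of 6 B cell markers ran from 4.79 to 6.45 on HSC-enriched and from 9.66 to 10.33 on Lin+ arrays. The same ranges were 4.64 to 5.94 and 8.56 to 9.42 for 6 erythroid markers, 4.55 to 5.52 and 8.58 to 9.06 for 5 monocyte markers, and 4.64 to 5.08 and 8.22 to 8.52 for 5 T and NK cell markers. In these bulk samples fewer cells of a type and less RNA per cell cannot be told apart. As a guide to background, the 95th percentile of 1091 olfactory receptor genes was 5.11.

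The promoter windows of 4 members are shown because they carry the assembly genes that differed most (Psmg1, Psmg4), a core gene that rose (Psma4) and a core gene that did not pass (Psma2). Each runs 5′ to 3′ from 250 bases before to 50 bases after the RefSeq start (GRCm38.p6), at chr16:95990911-95991210 on the minus strand for Psmg1, chr13:34162714-34163013 on the plus strand for Psmg4, chr9:54950609-54950908 on the plus strand for Psma4 and chr13:14612992-14613291 on the plus strand for Psma2. Capitals mark matches on either strand to TGACNNNGC (the antioxidant response element, which Nfe2l1 and Nfe2l2 can bind), CCAAT (the NF-Y box) and the site of nuclear respiratory factor 1 (the Nrf1 motif). None of these motifs contains another.
Psmg1: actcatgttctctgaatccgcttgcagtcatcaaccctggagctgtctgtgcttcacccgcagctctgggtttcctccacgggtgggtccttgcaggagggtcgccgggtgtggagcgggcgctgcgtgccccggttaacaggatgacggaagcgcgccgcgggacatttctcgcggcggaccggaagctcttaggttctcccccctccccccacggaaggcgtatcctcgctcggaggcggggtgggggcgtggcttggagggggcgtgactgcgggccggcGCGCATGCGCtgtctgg
Psmg4: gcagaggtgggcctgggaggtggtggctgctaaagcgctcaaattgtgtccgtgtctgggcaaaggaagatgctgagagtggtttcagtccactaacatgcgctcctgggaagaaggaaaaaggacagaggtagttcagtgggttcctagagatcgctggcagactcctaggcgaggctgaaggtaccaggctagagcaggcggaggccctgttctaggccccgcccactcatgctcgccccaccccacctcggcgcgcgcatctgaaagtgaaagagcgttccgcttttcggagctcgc
Psma4: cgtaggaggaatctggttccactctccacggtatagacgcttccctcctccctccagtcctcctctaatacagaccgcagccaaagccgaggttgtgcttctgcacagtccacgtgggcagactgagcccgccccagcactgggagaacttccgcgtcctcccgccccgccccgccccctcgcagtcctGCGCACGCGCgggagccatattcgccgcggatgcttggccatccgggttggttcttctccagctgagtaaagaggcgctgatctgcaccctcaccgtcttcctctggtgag
Psma2: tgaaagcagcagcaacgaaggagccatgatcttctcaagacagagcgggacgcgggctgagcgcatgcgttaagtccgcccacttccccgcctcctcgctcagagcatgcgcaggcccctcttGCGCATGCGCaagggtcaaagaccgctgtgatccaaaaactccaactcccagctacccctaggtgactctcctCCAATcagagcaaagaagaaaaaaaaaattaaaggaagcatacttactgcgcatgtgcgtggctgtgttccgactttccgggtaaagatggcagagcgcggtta

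The Nrf1 motif begins at base 284 of the Psmg1 window, base 190 of the Psma4 window and base 124 of the Psma2 window, and the Psmg4 window holds none of the motifs. The RefSeq table held 41 windows for 37 of the 45 members. The Nrf1 motif was found in 7 of the 41 (17.1%), against 4.6% of all 32851 windows of the same length. The windows were not matched for base composition, and the difference in share was not tested. The motif lay in the windows of Psma2, Psma3, Psma4, Psmc4, Psmc5, Psmd14 and Psmg1. Of these genes Psma4 and Psmg1 were higher in HSC-enriched cells, against 15.5% of all genes, and the other 5 did not pass. TGACNNNGC was found in 5 of the 41 (12.2%) against 12.4% of all windows, and CCAAT in 14 (34.1%) against 37.4%. The genes without a window in the table were Psma8, Psmb1, Psmb2, Psmb7, Psmc3, Psmd3, Psmd7 and Psmg2.

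Most proteasome genes did not pass the test between the populations, and the differences that held in every alternative lay in the assembly chaperones Psmg1 and Psmg4, the testis-type core subunit Psma8 and the activator subunit Psme1. Of the 45 genes 8 were higher in HSC-enriched cells, 2 were lower and 35 did not pass (limma, Benjamini-Hochberg adjusted p under 0.05 over all genes). That is 22.2% of the members, against 27.8% of all genes called in either direction. By direction it is 17.8% against 15.5% higher and 4.44% against 12.4% lower. The median difference, HSC-enriched minus Lin+, was 0.12 (log2), against 0.021 over all genes. All 4 arrays of a group lay above all 4 of the other for 12 of the 45 (26.7%), against 28.9% of all genes.

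The background share depends on how bright the genes are. Of the 12211 genes whose mean over all 8 arrays exceeded the median of all values, 45.6% were called, 25.7% as higher and 19.9% as lower. A gene high in 1 group can pass this limit through that group alone, as Psma8 does, so no count of members is set against it. For the 35 members that did not pass the test, the 95% interval of every difference lay within 2-fold either way, and for 30 of them within 1.5-fold. The widest reached a 1.88-fold lower level for Psma1 and a 1.85-fold higher level for Psmg2. Intervals of Psmg2 and Psmc3ip lay wholly on the higher side and that of Psme4 wholly on the lower side. The interval of Psmb11 rests on levels below the olfactory receptor guide to background.

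**Figure D1:**
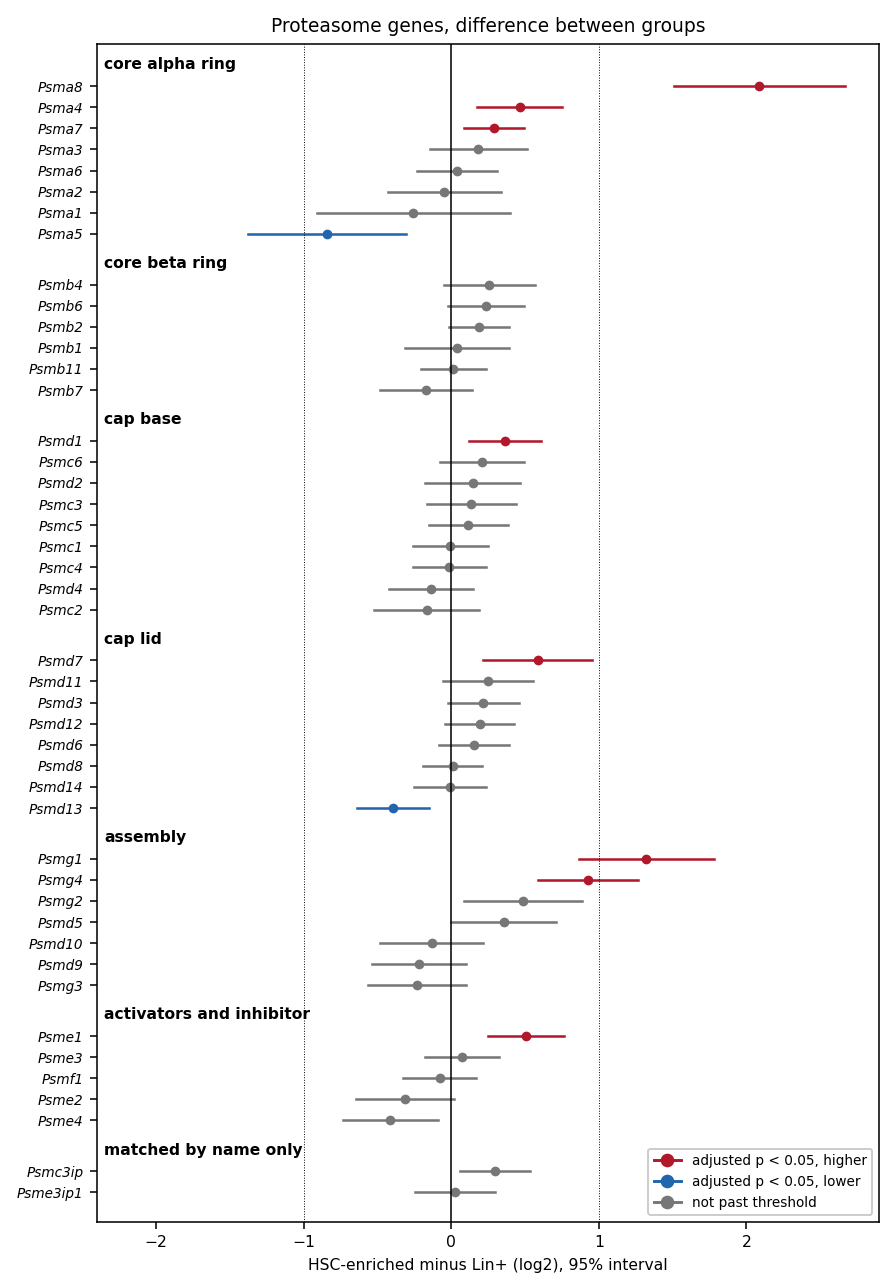
Difference between the groups, HSC-enriched minus Lin+ (log2), for each of the 45 proteasome genes, arranged by role. Points are fitted differences and bars their 95% intervals from 4 arrays per group; red and blue mark genes past the threshold, 8 higher and 2 lower, and dotted lines mark 2-fold. Psma8 and Psmg1 lie farthest to the right, and most bars cross 0. For Psma8 the Lin+ levels lie near background, so its point gives no exact fold. Psma5 lies near background in both groups, and its point gives no fold.

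Among the assembly chaperones Psmg1 and Psmg4 were higher in HSC-enriched cells. Psmg1, the partner of Psmg2 in a chaperone of the alpha ring, was at 7.22, 7.45, 6.84 and 6.85 on the Lin+ arrays and at 8.57, 8.65, 8.59 and 7.84 on the HSC-enriched arrays. All HSC-enriched values lay above all Lin+ values, with replicate 4 below its group. The difference was 1.32 ± 0.21 (log2, SE), a 2.50-fold higher level (limma adjusted p = 0.00071). Psmg4, which pairs with Psmg3 in another chaperone of the alpha ring, was at 7.17, 7.52, 7.06 and 7.19 in Lin+ and at 8.30, 8.21, 8.36 and 7.78 in HSC-enriched cells. Its groups did not overlap either, and it was 1.90-fold higher (difference 0.93 ± 0.15, adjusted p = 0.001). Both calls held in each of the 17 alternative analyses.

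The partners of these chaperones did not pass the test. Psmg2 was 7.22 ± 0.18 in Lin+ and 7.71 ± 0.37 in HSC-enriched cells (SD, n = 4), a difference of 0.49 with a 95% interval of 0.087 to 0.89 (limma adjusted p = 0.072). HSC-enriched replicate 4 was its lowest array of that group, at 7.27 against 7.70 to 8.17. Without that array Psmg2 was higher by 0.63 (adjusted p = 0.014). Psmg3 was at 7.57, 7.73, 7.86 and 7.53 in Lin+ and at 7.76, 7.56, 7.31 and 7.13 in HSC-enriched cells, overlapping groups with a difference of -0.23 and an interval of -0.56 to 0.10. Psmg2 also passed with quantile normalization (adjusted p = 0.042), array weights (0.045) and the stricter filter on low values (0.046). The difference between partners was not tested.

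The chaperones of the cap's base did not pass. Psmd5 differed by 0.35 (interval -0.0043 to 0.71), Psmd9 by -0.22 (-0.54 to 0.10) and Psmd10, also known as gankyrin, by -0.13 (-0.48 to 0.22). Psmd10 was at 8.01, 8.19, 7.72 and 8.07 in Lin+ and at 8.04, 8.09, 7.49 and 7.83 in HSC-enriched cells. Of the 7 assembly genes 2 were thus higher, against 15.5% of all genes, and the median difference over all 7 was 0.35.

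**Figure D2:**
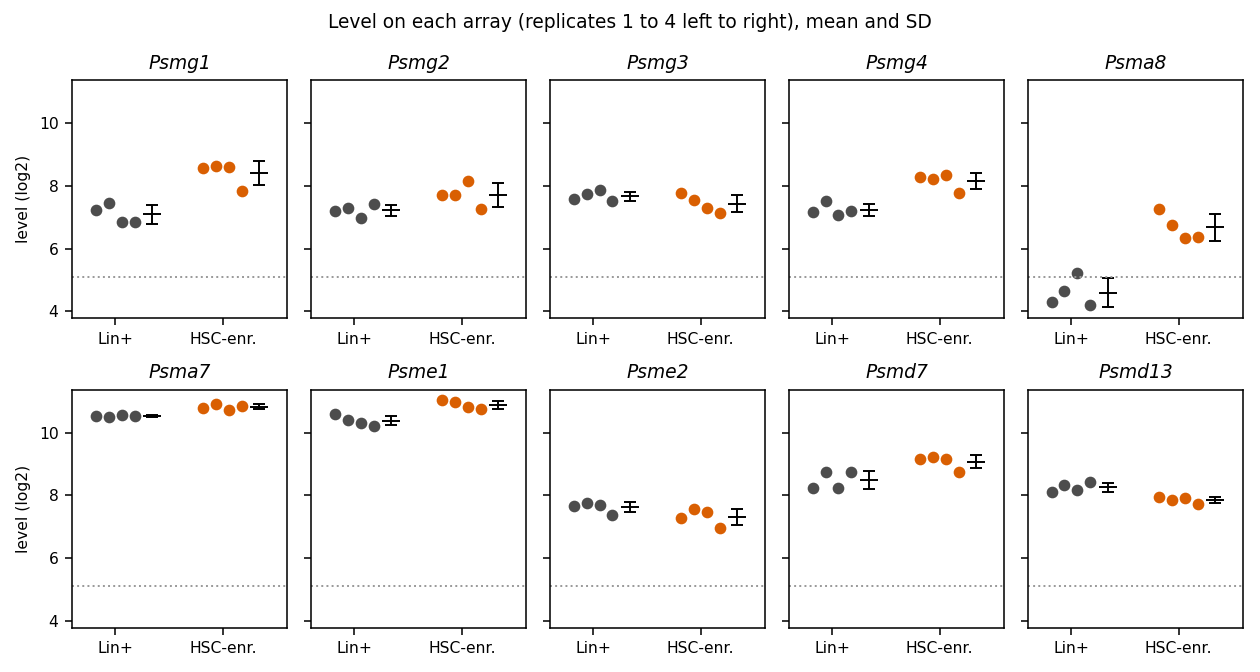
Level (log2) on each of the 8 arrays for 10 genes, with Lin+ arrays in grey and HSC-enriched arrays in orange, replicates 1 to 4 from left to right within a group, and the group mean with its SD beside them. The dotted line is the olfactory receptor guide to background at 5.11. Psmg1, Psmg4, Psma8, Psma7, Psme1 and Psmd7 show no overlap with HSC-enriched cells higher, and Psmd13 none with them lower.

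In the alpha ring the tissue-restricted subunit stood apart. Psma8 encodes a subunit known from the testis, where it takes the place of its relative Psma7 in the ring. It was at 4.29, 4.64, 5.24 and 4.22 in Lin+ and at 7.26, 6.77, 6.35 and 6.37 in HSC-enriched cells. All HSC-enriched values were above the olfactory receptor guide and 3 of the 4 Lin+ values below it. The group means were 6.69 and 4.60. Because the Lin+ level is near background, the fold is a lower bound: with each Lin+ array raised to the guide where it lay below it, Psma8 was at least 2.92-fold higher in HSC-enriched cells (limma adjusted p = 0.00015 on the measured values). The call held in each of the 17 alternatives. Cross-hybridisation between Psma8 and Psma7 was not tested.

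Among the subunits of the standard alpha ring Psma4 and Psma7 were higher by small amounts. Psma7, whose place Psma8 takes, was at 10.53, 10.49, 10.57 and 10.53 in Lin+ and at 10.80, 10.91, 10.72 and 10.84 in HSC-enriched cells. The groups did not overlap, yet the level was only 1.22-fold higher (limma adjusted p = 0.038). Its call was lost with median centring (adjusted p = 0.061) and without any array other than HSC-enriched replicate 3 (adjusted p = 0.059 to 0.11). Psma4 was at 7.42, 7.91, 7.74 and 7.83 in Lin+ and at 8.15, 8.17, 8.37 and 8.05 in HSC-enriched cells, 1.38-fold higher without overlap (adjusted p = 0.022, and 0.065 without HSC-enriched replicate 3).

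Psma5 passed the test as lower (limma adjusted p = 0.024), but on values near background, so no size is given. It was at 4.44, 3.48, 4.68 and 4.44 in Lin+ and at 3.28, 3.40, 3.76 and 3.22 in HSC-enriched cells, overlapping groups in which every array lay below the olfactory receptor guide. Its call was lost without any of 6 single arrays, all but Lin+ replicate 2 and HSC-enriched replicate 3 (adjusted p = 0.054 to 0.070). The other alpha subunits did not pass. Psma6 was at 10.54, 10.75, 10.39 and 10.70 in Lin+ and at 10.74, 10.79, 10.57 and 10.44 in HSC-enriched cells, a difference of 0.039 with an interval of -0.23 to 0.31. Psma2 was at 8.70, 9.28, 8.68 and 9.12 against 9.02, 9.17, 8.69 and 8.71 (difference -0.046, interval -0.43 to 0.34).

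Psma3 differed by 0.18 (interval -0.14 to 0.51) and Psma1 by -0.26 (-0.91 to 0.40). Psma1 had the largest within-group SD of the 45 genes (0.52). It was at 7.55 on HSC-enriched replicate 4, against 8.61 to 8.84 on the other arrays of that group, and without that array its difference was 0.042. Over the 8 alpha subunits measured, 3 were higher and 1, Psma5 near background, was lower, against 15.5% and 12.4% of all genes. Their median difference was 0.11.

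None of the 6 beta subunits measured passed the test, and at an unadjusted p under 0.05 limma also called 0 of them, against 35.8% of all genes. Psmb6 and Psmb7 carry the caspase-like and trypsin-like protease sites of the standard core, and they differed by 0.23 (interval -0.024 to 0.49) and -0.17 (-0.48 to 0.14). For Psmb3 and Psmb5, which also belong to the beta ring, there was no value. Psmb2 was at 10.55, 10.53, 10.65 and 10.51 in Lin+ and at 10.78, 10.78, 10.76 and 10.68 in HSC-enriched cells. Its groups did not overlap, but the difference of 0.19 did not pass (adjusted p = 0.17). Psmb4 was at 10.17, 10.51, 10.19 and 10.26 against 10.66, 10.80, 10.42 and 10.28, with overlap (difference 0.26, adjusted p = 0.23).

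Psmb1 differed by 0.042 (interval -0.31 to 0.39). When the arrays were quantile normalized again, Psmb2, Psmb4 and Psmb6 passed as higher (0.31, 0.38 and 0.37, limma adjusted p = 0.024, 0.041 and 0.028). Psmb11, the protease subunit of the thymus cortex, lay below the olfactory receptor guide on every array, at 4.35, 4.35, 4.21 and 4.31 in Lin+ and 4.31, 4.19, 4.31 and 4.48 in HSC-enriched cells. The median difference of the beta subunits was 0.12.

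The inducible protease subunits, which replace standard beta subunits in the immunoproteasome, did not pass either. Psmb8 was at 8.69, 8.84, 8.40 and 8.80 in Lin+ and at 9.07, 9.06, 8.82 and 8.72 in HSC-enriched cells (difference 0.24, interval -0.062 to 0.53). Psmb9 was at 11.19, 10.99, 11.17 and 10.96 against 11.29, 11.18, 11.01 and 11.10 (difference 0.066, interval -0.17 to 0.31). Psmb10 was at 9.64, 9.61, 9.46 and 9.44 against 9.86, 9.81, 9.48 and 9.42 (difference 0.11, interval -0.18 to 0.39). The groups overlapped for all 3 genes, while over all genes 28.9% had groups that did not overlap.

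In the base of the cap, Psmd1 was higher and the ATPases did not pass. Psmd1, a large scaffold protein of the base, was at 8.59, 8.73, 8.71 and 8.95 in Lin+ and at 9.05, 9.05, 9.11 and 9.24 in HSC-enriched cells. The groups did not overlap and the level was 1.29-fold higher (limma adjusted p = 0.03). The call was lost without any of 6 single arrays, all but Lin+ replicate 4 and HSC-enriched replicate 1 (adjusted p = 0.05 to 0.076). None of the 6 ATPase genes Psmc1 to Psmc6 passed, against 27.8% of all genes called in either direction. Their differences ran from -0.17 (Psmc2) to 0.21 (Psmc6), with limma adjusted p of 0.29 to 0.98.

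Psmc5 was at 9.54, 9.72, 9.34 and 9.73 in Lin+ and at 9.82, 9.80, 9.56 and 9.62 in HSC-enriched cells (interval -0.15 to 0.39). Psmc3 was at 9.25, 9.61, 9.19 and 9.36 against 9.73, 9.54, 9.28 and 9.40 (interval -0.16 to 0.44). Psmc1 and Psmc4 had group means within 0.013 of each other, with intervals of -0.26 to 0.25 and -0.26 to 0.23. The scaffold gene Psmd2 differed by 0.14 (interval -0.18 to 0.46) and the ubiquitin receptor gene Psmd4 by -0.14 (-0.42 to 0.14). The median of the 9 base genes was 0.12.

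Of the 8 lid genes within the name rule 1 rose and 1 fell, against 15.5% and 12.4% of all genes. Sem1, a lid subunit gene outside that rule, was lower and is described with the genes that the rule does not reach. Psmd7, the partner of the deubiquitinating enzyme Psmd14, was at 8.23, 8.74, 8.23 and 8.75 in Lin+ and at 9.16, 9.23, 9.14 and 8.75 in HSC-enriched cells. HSC-enriched replicate 4 lay only just above the highest Lin+ array. The level was 1.5-fold higher (limma adjusted p = 0.022), and the call was lost without Lin+ replicate 1 or 3 or HSC-enriched replicate 1, 2 or 3 (adjusted p = 0.056 to 0.066). Psmd13 was at 8.10, 8.33, 8.17 and 8.41 in Lin+ and at 7.94, 7.86, 7.91 and 7.72 in HSC-enriched cells, 1.32-fold lower without overlap (adjusted p = 0.019). Its call was lost without Lin+ replicate 2 or 4 or HSC-enriched replicate 4 (adjusted p = 0.056, 0.056 and 0.052).

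The other 6 lid genes within the name rule did not pass. Psmd14 itself differed by -0.0086 (interval -0.25 to 0.24). Psmd8 was at 10.17, 10.15, 10.28 and 10.23 in Lin+ and at 10.18, 10.23, 10.27 and 10.19 in HSC-enriched cells (interval -0.19 to 0.21). Psmd12 was at 9.23, 9.34, 9.02 and 9.08 against 9.43, 9.36, 9.39 and 9.26 (difference 0.19, interval -0.044 to 0.43). Psmd3, Psmd6 and Psmd11 differed by 0.22, 0.15 and 0.25. The median of the 8 lid genes, which leaves out Sem1, was 0.17.

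Of the alternative activators of the core, Psme1 was higher and the others did not pass. Psme1 and Psme2 encode the alternating subunits of an activator ring that interferon induces. Psme1 was at 10.58, 10.42, 10.31 and 10.22 in Lin+ and at 11.02, 10.97, 10.82 and 10.75 in HSC-enriched cells. The groups did not overlap, and the level was 1.42-fold higher (difference 0.51 ± 0.11, limma adjusted p = 0.0069), a call that held in each of the 17 alternatives. Psme2 was at 7.67, 7.76, 7.69 and 7.38 against 7.29, 7.55, 7.46 and 6.95, with overlap and a difference of -0.31 (interval -0.64 to 0.019, adjusted p = 0.17).

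Psme3, which forms an activator ring of its own in the nucleus, was at 9.59, 9.68, 9.39 and 9.82 in Lin+ and at 9.65, 9.77, 9.72 and 9.63 in HSC-enriched cells (difference 0.073, interval -0.18 to 0.33). Psme4, a large single-chain activator, was at 8.44, 8.26, 8.21 and 8.84 against 7.97, 8.14, 7.89 and 8.10. All its HSC-enriched values lay below all Lin+ values, but the difference of -0.41 did not pass (limma adjusted p = 0.062). It did with the laxer and the stricter filter on low values (adjusted p = 0.046 and 0.042) and without Lin+ replicate 3 (0.045). Psmf1, an inhibitor of the core, differed by -0.076 (interval -0.32 to 0.17), and the median of these 5 genes was -0.076.

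The genes matched by name only did not pass. Psmc3ip, a recombination factor gene, was at 6.65, 6.77, 6.44 and 6.64 in Lin+ and at 7.04, 6.89, 6.93 and 6.82 in HSC-enriched cells. Its groups did not overlap (difference 0.29, limma adjusted p = 0.065, and 0.048 with quantile normalization). Psme3ip1 was at 9.09, 9.02, 8.93 and 8.89 against 9.19, 8.93, 9.14 and 8.74 (difference 0.022, interval -0.25 to 0.29).

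Within a group, many proteasome genes departed from their means in the same direction on an array. On HSC-enriched replicate 4, 39 of the 45 lay below their group mean, against 50.4% of all genes, and their median departure was -0.14 against -0.0017 over all genes. It was the lowest array of its group for 28 members (62.2%, against 27.7% of all genes). HSC-enriched replicates 1 and 2 had median departures of 0.11 and 0.083, and replicate 3 had -0.0013. Among Lin+ arrays, replicate 2 was the highest for 25 members (55.6%, against 19.8% of all genes), with a median departure of 0.15, and replicate 3 the lowest for 23 (51.1%, against 23.9%).

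The mean of the neutrophil markers was higher on HSC-enriched replicates 3 and 4 than on 1 and 2. Mpo did not follow on replicate 4, at 5.45 against 5.10 and 5.52 on replicates 1 and 2. Replicate 3 was also the highest array of its group in the means of B cell (6.45), erythroid (5.94), monocyte (5.52) and T and NK cell (5.08) markers. The part of these differences in the proteasome values was not tested. Without replicates 3 and 4, 5 members were higher (Psma8, Psmd7, Psme1, Psmg1 and Psmg4) and 0 lower (limma), or 2 lower at an unadjusted p under 0.05. In that fit 23.1% of all genes were called. The members' median difference was then 0.22. At the same time Psma4, Psma7, Psmd1, Psma5 and Psmd13 lost their calls (adjusted p = 0.061 to 0.19). Of the other called genes described after these, Nrf1 and Ecpas lost theirs (0.19 and 0.068).

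**Figure D3:**
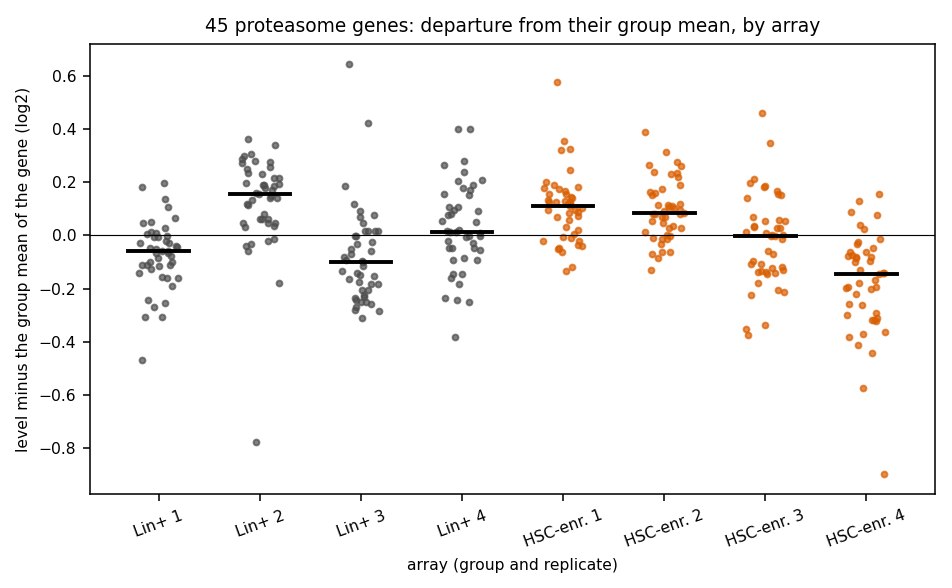
Departure of each of the 45 proteasome genes from its own group mean (log2) on each array, 1 point per gene, with Lin+ arrays in grey, HSC-enriched arrays in orange and black bars at the medians. The points of HSC-enriched replicate 4 lie mostly below 0 (median -0.14) and those of Lin+ replicate 2 mostly above it (0.15).

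Proteasome genes that the name rule does not reach were compared as well, and 4 of 12 were higher and 1 lower, with a median difference of 0.31. Over all genes 15.5% were higher and 12.4% lower, and over the brighter genes (mean above the median of all values), which include all 12, the shares were 25.7% and 19.9%. Txnl1, whose product binds the lid, was at 9.32, 9.74, 9.68 and 9.47 in Lin+ and at 10.31, 10.50, 10.22 and 10.22 in HSC-enriched cells, 1.69-fold higher (limma adjusted p = 0.00099). Zfand5, a proteasome-binding activator, was 1.59-fold higher (adjusted p = 0.00056) and Ecpas, a proteasome adaptor, 1.35-fold higher (adjusted p = 0.021). The groups did not overlap for any of these. Ecpas lost its call without Lin+ replicate 1 or 3 or HSC-enriched replicate 1 or 2 (adjusted p = 0.051 to 0.061).

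Sem1, a small lid subunit, was at 11.39, 11.52, 11.62 and 11.56 in Lin+ and at 10.97, 10.98, 11.05 and 10.86 in HSC-enriched cells. It was 1.47-fold lower without overlap (limma adjusted p = 0.0015), and this call held in each of the 17 alternatives. Pomp, the chaperone that matures the beta ring, and Akirin2, which brings proteasomes into the nucleus, differed by 0.16 (interval -0.086 to 0.40) and 0.23 (-0.023 to 0.49).

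Of 9 genes listed here as possible regulators of proteasome genes, 2 were higher and 3 lower, with a median difference of 0.032. Over all genes 27.8% were called in either direction, and over the brighter genes 45.6%. Nfe2l1, the factor that raises proteasome transcription when proteasome activity is short, was at 7.71, 7.55, 7.70 and 7.85 in Lin+ and at 8.17, 8.19, 8.10 and 7.92 in HSC-enriched cells. It was 1.31-fold higher without overlap (limma adjusted p = 0.02). Its call was lost without Lin+ replicate 2 or HSC-enriched replicate 1 or 2 (adjusted p = 0.054 to 0.062). Its relative Nfe2l2, known from the response to oxidants, was 1.3-fold lower (adjusted p = 0.024). That call was lost with quantile normalization (0.094) and without Lin+ replicate 3 or HSC-enriched replicate 1, 2 or 3 (0.055 to 0.071).

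Of the 3 NF-Y subunit genes, Nfyb was 1.68-fold lower (limma adjusted p = 0.0012), Nfya was 1.26-fold higher (adjusted p = 0.043), and Nfyc did not pass (difference -0.34, interval -0.63 to -0.055, adjusted p = 0.078). The Nfya call was lost with centring (0.068) and without any array other than HSC-enriched replicate 3 (0.051 to 0.12). Nrf1, nuclear respiratory factor 1, whose motif was found in 7 member windows, was at 7.63, 7.79, 7.49 and 7.94 in Lin+ and at 7.38, 7.39, 7.14 and 6.87 in HSC-enriched cells. It was 1.43-fold lower without overlap (adjusted p = 0.023), and the call was lost without Lin+ replicate 2 or 4 or HSC-enriched replicate 3 or 4 (0.055 to 0.067). Without HSC-enriched replicates 3 and 4, which leaves replicates 1 and 2 of that group, the Nrf1 difference went from -0.52 to -0.33. It did not pass in that fit (limma adjusted p = 0.19), and the cause of the change was not tested. Ngly1, an enzyme that activates Nfe2l1, differed by 0.20 (interval -0.054 to 0.45) and Stat3 by 0.032 (-0.18 to 0.25).

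Of 16 genes of ubiquitin conjugation and delivery to the proteasome, 6 were higher and 0 lower (limma), with a median difference of 0.16, against 15.5% and 12.4% of all genes and 25.7% and 19.9% of the brighter genes. The shuttle genes Ubqln4 and Ubqln2, whose products carry tagged proteins to the proteasome, led the list. Ubqln4 was at 6.74, 7.04, 6.92 and 7.06 in Lin+ and at 8.05, 7.77, 8.17 and 7.78 in HSC-enriched cells, 2.0-fold higher without overlap (adjusted p = 0.00019). Ubqln2 was 1.72-fold higher (adjusted p = 0.0013) and the ubiquitin ligase gene Huwe1 1.67-fold higher (adjusted p = 0.00037), and all 3 calls held in each of the 17 alternatives. The conjugating enzyme genes Ube2d3 and Ube2k differed by -0.034 (interval -0.28 to 0.21) and 0.087 (-0.15 to 0.32). At an unadjusted p under 0.05, 0 of the 16 were lower, against 15.7% of all genes.

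**Figure D4:**
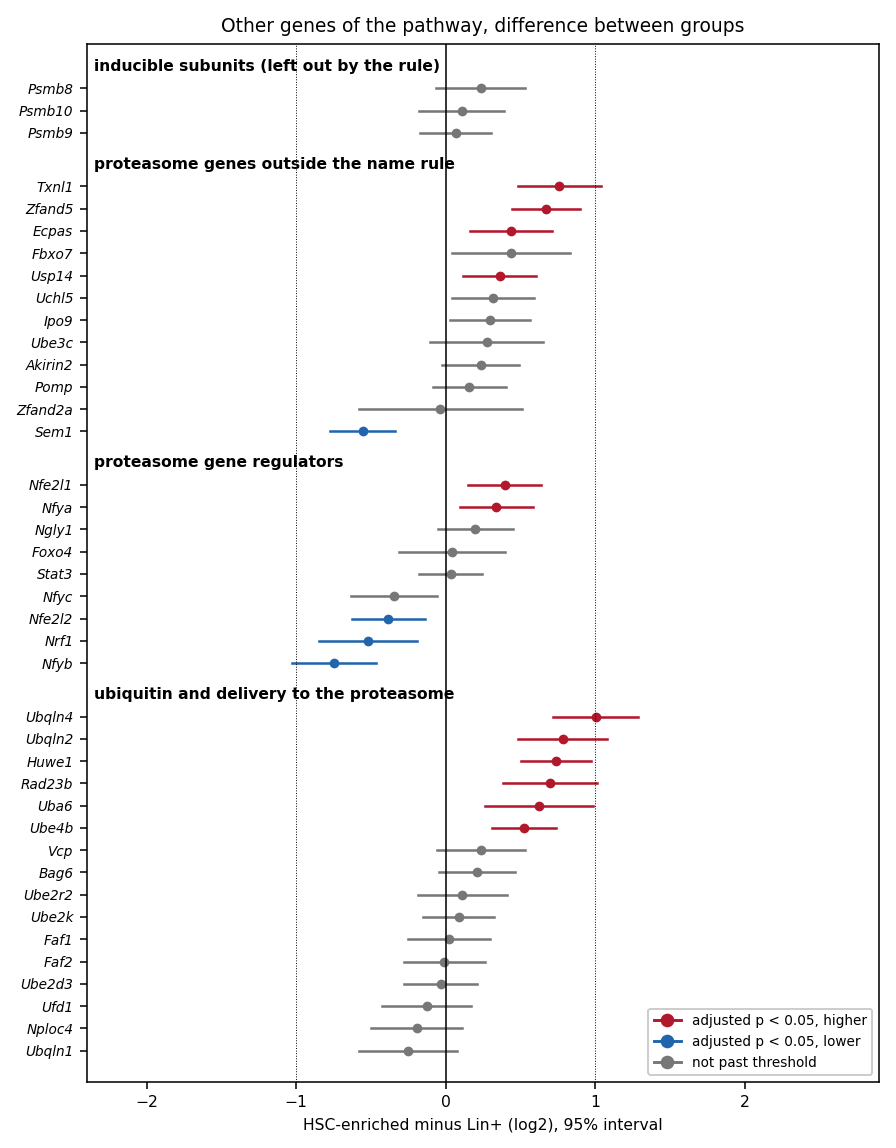
Difference between the groups, HSC-enriched minus Lin+ (log2), for the inducible subunits, 12 proteasome genes outside the name rule, 9 possible regulators and 16 genes of ubiquitin conjugation and delivery. Points are fitted differences and bars 95% intervals from 4 arrays per group; red and blue mark genes past the threshold, 12 higher and 4 lower. Ubqln4 is farthest to the right and Nfyb farthest to the left.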

How the data were processed

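The authors deposited a table of log2 levels for 24973 gene-level probe sets on 8 arrays. The submitters' processing notes list RMA and Partek and give no version. The labels' protocol names amplification of a few nanograms of RNA and 2 array versions (MouseGene 1.0st and 2.0st) without saying which sample used which. The sources used here do not name a genome build, and any pooling of samples is unstated. Rows were named through a probe table (1 symbol for 24015, none for 958), with 23922 symbols updated by Entrez gene ID through RefSeq (GRCm38.p6). The brightest probe set per symbol was kept, giving 24011 genes.

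The difference HSC-enriched minus Lin+ was tested with limma 3.58.1 (lmFit, eBayes, R 4.3.3) on all genes, without covariates or a filter, and p-values were adjusted by Benjamini-Hochberg. The threshold was an adjusted p of 0.05. The fit was tested on simulated data. Alternatives were median centring, quantile normalization, a laxer and a stricter filter on low values (the 40th percentile and the median over the table, exceeded on at least 4 arrays), a variance trend with robust fitting, array weights, a block for the replicate number, the mean of probe sets, each array left out in turn and HSC-enriched replicates 3 and 4 left out together.

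Every member was named. Values on all arrays were given, per role, for at most 3 called genes that rose most, 3 that fell most and 2 uncalled genes of highest level, for the tissue-restricted, activator and inducible genes named by symbol, and by the same ranking in the other lists, with their group means only for some. Members and lists were chosen with earlier results of these data known, and the shares over brighter genes were added after the data were seen. Promoter windows came from RefSeq (GRCm38.p6). Python 3.11.15 and matplotlib 3.10.9 drew the figures.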

Additional observations from a re-analysis of the deposited data

Results flagged for a closer look

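In the HSC-enriched group, 2 proteasome genes had an array far from the other 3 by Dixon's criterion, which chance meets in about 1 of 20 groups of values, and 90 such groups were examined. Psmg1 was at 7.84 on HSC-enriched replicate 4, against 8.57 to 8.65 on the others. Psmc6 was at 9.17 on the same array, against 9.45 to 9.49.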

How the results depend on the processing

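Of the 10 called members, Psma8, Psme1, Psmg1 and Psmg4 kept their calls in all 17 alternatives, and the other 6 lost theirs in at least 1. The 8 members higher in HSC-enriched cells became 13 with quantile normalization and 5 without HSC-enriched replicates 3 and 4, and 5 to 7 when single arrays were left out. The 2 lower members became 1 with array weights, 1 with the replicate block and 0 without HSC-enriched replicates 3 and 4, and 0 to 2 when single arrays were left out. The counts of 5 came without Lin+ replicate 1 or 3 or HSC-enriched replicate 2 or 3, and the counts of 0 without replicate 4 of either group. With the replicate block 7 members were higher, and Psma7 and Psmd13 did not pass (adjusted p = 0.11 and 0.068), nor among other genes named did Nfe2l1, Nfe2l2, Nfya and Nrf1 (0.054 to 0.088). The block changed no other call named. Arrays of the same number did not deviate together (correlations -0.15 to 0.059), and 1 of 4 Lin+ arrays correlated best with its own number. Such correlations cannot show whether samples of the same number share a mouse or a sort, and the labels do not say. The median difference of the base of the cap, 0.117, became 0.21 with quantile normalization and 0.226 without HSC-enriched replicates 3 and 4, and fell to 0.036 without Lin+ replicate 3 and 0.055 without HSC-enriched replicate 1. The median of all members, 0.117, ran from 0.036 (without Lin+ replicate 3) to 0.22 (without HSC-enriched replicates 3 and 4), and that of the alpha ring, 0.112, from 0.042 (without HSC-enriched replicate 1) to 0.241 (without HSC-enriched replicates 3 and 4). The activator median turned from -0.076 to 0.024 without HSC-enriched replicates 3 and 4. The medians of the beta ring, the lid and the assembly genes stayed above 0 (0.1 to 0.226, 0.141 to 0.251 and 0.259 to 0.468). The counts of all genes higher and lower each stayed within 1.5 times of the reported ones. The cause of these changes was not tested.

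Genes that did not pass and lay near 0 changed sign, in no case past the threshold. With quantile normalization the differences were Psma2 0.034, Psmc1 0.069, Psmc4 0.074, Psmd14 0.083 and Ube2d3 0.041. With median centring they were Psmb11 -0.00022 and Psmd8 -0.005, and with array weights Psmb11 -0.003. Without HSC-enriched replicates 3 and 4 they were Psma1 0.114, Psma2 0.154, Psmb11 -0.056, Psmb7 0.034, Psmc1 0.113, Psmc2 0.006, Psmc4 0.065, Psmd10 0.072, Psmd14 0.075, Psmd8 -0.004, Psmf1 0.024 and Stat3 -0.026. When single arrays were left out, the differences ran over Psma1 -0.412 to 0.042, Psma2 -0.138 to 0.066, Psma6 -0.029 to 0.106, Psmb1 -0.062 to 0.148, Psmb11 -0.037 to 0.059, Psmc1 -0.051 to 0.069, Psmc4 -0.074 to 0.05, Psmd14 -0.045 to 0.056, Psmd8 -0.009 to 0.036, Psme3 -0.005 to 0.14, Psme3ip1 -0.041 to 0.109, Stat3 -0.017 to 0.064 and Ube2d3 -0.102 to 0.017. Psma5 and Psmb11 on every array, and Psma8 on 3 of the 4 Lin+ arrays, lay below the olfactory receptor guide to background, which limits their differences.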
